A study of Mus musculus with 21 samples.

Results

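Toll-like receptors are pattern receptors of innate immune cells, and the mouse family other than the endotoxin receptor Tlr4 was followed here together with the adaptor Myd88 and the kinase Irak4. The rows were taken by name, as Tlr1, Tlr2, Tlr3, Tlr5, Tlr6, Tlr7, Tlr8, Tlr9, Myd88 and Irak4, and not by a cutoff on their values. The list was written with earlier results of these data known. All 10 names were found among the 770 gene rows of the panel. Tlr2 sits on the cell surface and pairs with Tlr1 or Tlr6 to bind bacterial lipoproteins, and Tlr5 binds flagellin. Tlr3, Tlr7, Tlr8 and Tlr9 lie in endosomes and bind nucleic acids. Apart from Tlr3, these receptors signal through Myd88, which recruits Irak4 as the first kinase of the chain that leads to NF-kB. In the lung, macrophages and other myeloid cells carry many of them.

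Lung RNA was counted in 21 A/J mice of both sexes, 8 to 12 weeks old on arrival, an inbred strain in which lung tumors form readily. HDE was an extract of swine barn dust in Hank's Balanced Salt Solution, passed through a sterile filter and diluted in PBS. Mice received 50 µL of PBS (saline) or of 12.5% HDE into the nose 3 times a week for 24 weeks. Part of them had 1 intraperitoneal dose of 100 mg/kg NNK, a nitrosamine carcinogen of tobacco, at the start of week 4. The other mice had PBS by the same route. The study combined a first and a later experiment, and control mice of the later one had ethanol in saline by tail vein. Which experiment each mouse came from is not given in the labels. The groups were saline only (n = 6, 5 females and 1 male), HDE only (n = 4, 1 female and 3 males), saline + NNK (n = 6, 3 females and 3 males) and HDE + NNK (n = 5, 3 females and 2 males), with 1 library for each mouse. Per the methods, the airways had been lavaged and the tumors cut out before the RNA was made, so the tissue lacks part of the airspace cells.

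Raw counts summed to 174604 to 529829 per library (median 343149), and negative control probes read 2 to 40 counts. The upper limit of the negative controls (mean plus 2 SD, per library) was 28.6 to 43.7 counts in the 12 libraries of run 1 and 13.1 to 27.0 counts in the 9 libraries of run 2. The 2 runs are told apart by the date in the library names. Of the HDE + NNK mice 4 were read in run 1 and 1 in run 2, of HDE only 2 and 2, of saline + NNK 4 and 2, and of saline only 2 and 4. Normalized counts were raw counts scaled by the geometric mean of 4 housekeeping genes, Eef1g, Oaz1, Rpl19 and Sdha. The deposited counts carry a quality mark on 1 library, saline only run 2 lane 3. Of the 10 members, 4 (Tlr2, Tlr8, Myd88 and Irak4) averaged 87 or more raw counts over the libraries, which is the study's own lower bound, and were among the 388 genes of the main fit. The other 6 were too close to background for it and were read against the negative controls and in a fit of 766 genes without a minimum.

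Tlr2 and Tlr8 were higher in HDE-exposed lungs, both without and with NNK, and Tlr1 and Tlr7 were higher in the fit without a minimum, where Tlr6 rose less firmly. For Myd88 and Irak4 the differences were smaller, 0.24 and 0.17 on the log2 scale, and did not pass the test. Tlr3 and Tlr5 were below saline on average and did not pass the test under the main scaling. Of the 4 members in the main fit, 2 were called higher with HDE and 0 lower, where 39.4% of all 388 genes were called higher and 10.1% lower (edgeR's quasi-likelihood test, Benjamini-Hochberg adjusted p under 0.05 over all genes). The median log2 fold change of the 4 members was 0.55 against 0.15 for all 388 genes. No effect of NNK passed the test for any of them. Tlr8 alone among the 388 genes differed between males and females.

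Tlr2 had 52.4 normalized counts in the lowest, 68.7 in the median and 102 in the highest saline only library. With HDE only, the 4 libraries had 150, 138, 117 and 100.5 normalized counts of Tlr2. With saline + NNK, Tlr2 ran from 59.2 (median 67.7) to 83.6 normalized counts. With HDE + NNK, the 5 libraries had 135, 125, 116, 130 and 135 normalized counts of Tlr2. All 5 HDE + NNK libraries lay above all 6 saline + NNK libraries, an order that 79 of the 388 genes showed, Tlr2 among them. Over both NNK arms 8 of 9 HDE libraries lay above all 12 saline libraries. The exception was HDE only run 2 lane 12, which fell just under the highest saline library, saline only run 2 lane 3, the one with the quality mark.

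The mean of Tlr2 was 70.2 ± 13.8 normalized counts in saline lungs (SD, n = 12) and 127 ± 14.6 in HDE lungs (SD, n = 9), a 1.82-fold rise (95% confidence interval 1.54 to 2.14). Its log2 fold change was 0.86 (SE 0.11, edgeR adjusted p = 1.24e-06). Without NNK it was 0.85 (SE 0.17, adjusted p = 0.000322) and with NNK 0.87 (SE 0.15, adjusted p = 9.71e-05), both by edgeR. Within run 1 alone it was 0.92 and within run 2 alone, where HDE + NNK had 1 library, 0.88. Scaling on the positive control probes, which leaves RNA input in the values, gave 0.55 (edgeR adjusted p = 0.14) and lost the call.

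**Figure D1:**
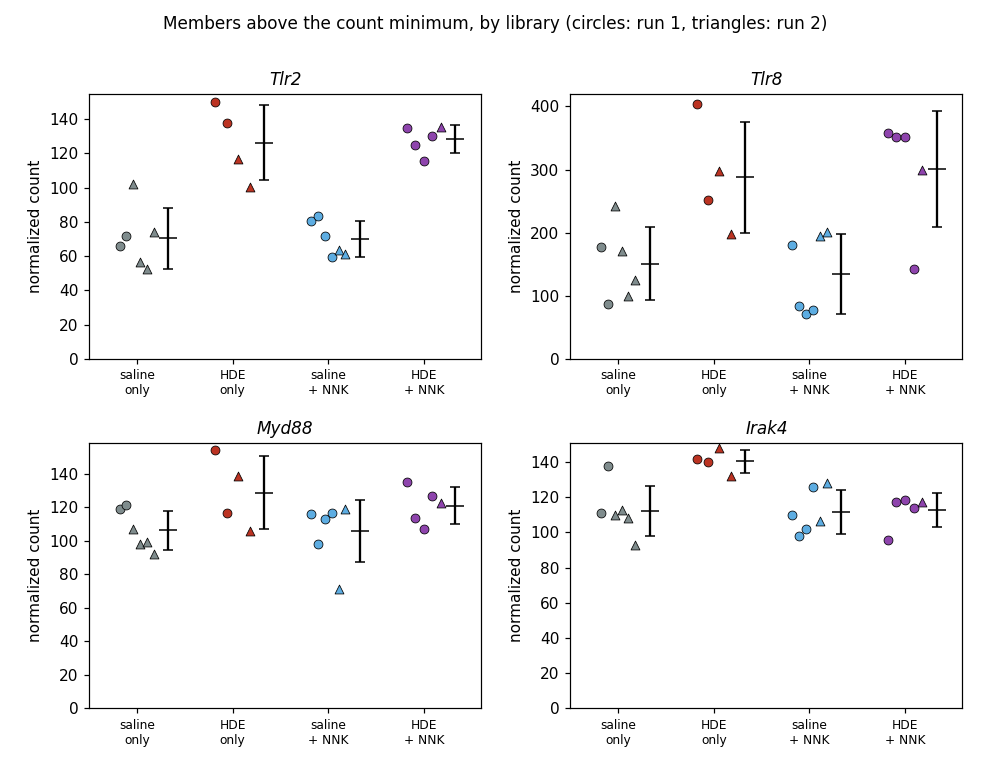
Normalized counts (y axis, linear, from 0) of the 4 members in the main fit, for each of the 21 libraries by group, with circles for run 1, triangles for run 2, and the mean with its SD beside each group. Tlr2 of the 5 HDE + NNK libraries lies between 116 and 135, above all 6 saline + NNK libraries, while the groups overlap for Myd88.

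Tlr1 and Tlr6, the partners of Tlr2, were detected at low counts. Tlr1 had raw counts of 15 to 79 and exceeded the negative control limit in 14 of 21 libraries, 5 of them HDE + NNK and 1 of them HDE only. Tlr6 had raw counts of 20 to 97 and exceeded the limit in 20 of 21 libraries. Tlr1 had 28.8 ± 8.2 normalized counts in saline lungs (SD, n = 12) and 54.9 ± 17.9 in HDE lungs (SD, n = 9), and 7 of the 9 HDE libraries lay above all saline libraries. Among these 7 were HDE only run 1 lane 10 and lane 12, whose raw counts of 35 and 29 were under their limits of 36.7 and 36.8. Scaling by low housekeeping counts took them to 47.7 and 68.8. Tlr6 had 46.6 ± 14.5 and 74.7 ± 30.3 normalized counts in the same lungs, and 6 of 9 HDE libraries lay above all saline libraries. All of these 6 were of run 1, while the HDE libraries of run 2 had 30.6, 48.3 and 38.5. The runs differed for Tlr6, with 75.3 ± 22.4 normalized counts in run 1 (SD, n = 12) and 36.4 ± 7.5 in run 2 (SD, n = 9).

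In the fit of 766 genes without a minimum, 5 of the 10 members were called higher with HDE (Tlr1, Tlr2, Tlr6, Tlr7 and Tlr8) and 0 lower, where 34.3% of all genes were called higher and 4.7% lower. The log2 fold change was 0.91 (SE 0.21, edgeR adjusted p = 0.00128) for Tlr1 and 0.69 (SE 0.22, adjusted p = 0.0140) for Tlr6. The median over the 766 genes was itself 0.43, so that low counts as a whole read higher with HDE under this scaling. After TMM scaling the median of all genes was 0.05. Tlr1 then had 0.55 (edgeR adjusted p = 0.00793) and kept its call, and Tlr6 had 0.29 (adjusted p = 0.116) and lost it. Within run 2 alone Tlr1 had 0.85 (adjusted p = 0.0456), while Tlr6 had 0.06 (adjusted p = 0.911). Without HDE only run 1 lane 12, whose 123 normalized counts of Tlr6 were the highest, Tlr6 was at 0.52 (adjusted p = 0.0636).

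The 250 bases before the start that the RefSeq promoter table gives for Tlr2 hold 1 match to a loose form of the site that NF-kB binds (GGGA, then 4 bases of any kind, then CC), read on both strands. It is shown because Tlr2 had the smallest adjusted p of the members, with the match in capitals and 10 bases on either side. The match lies 172 to 163 bases before that start, and the 30-base stretch printed is chr3:83841761-83841790 on the minus strand of GRCm38.p6 (RefSeq). RefSeq's annotated Tlr2 gene reaches further upstream, so that the stretch falls inside it.
Tlr2: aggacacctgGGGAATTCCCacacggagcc
The motif occurs in 17.6% of 32851 windows of 250 bases, each before a start given in that table. It was found in 3 of the 9 members that have an entry, also in Tlr3 and Tlr5, which were not called higher, and no binding was measured.

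Tlr8 belongs to the endosomal receptors and in humans binds single-stranded RNA. It was at 87.6 (lowest), 148 (median) and 242 (highest) normalized counts with saline only. The 4 HDE only libraries had 403, 252, 297 and 198 normalized counts of Tlr8. With saline + NNK it ran from 71.0 (median 132) to 201 normalized counts, with 3 of the 6 libraries between 71.0 and 84.3. The 5 HDE + NNK libraries had 358, 351, 351, 142 and 300.1 normalized counts of Tlr8. Of the 9 HDE libraries 7 lay above all 12 saline libraries. The 2 others were HDE + NNK run 1 lane 11, at the level of the median saline only library, and HDE only run 2 lane 12.

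Tlr8 averaged 143 ± 58.4 normalized counts in saline lungs (SD, n = 12) and 295 ± 84.3 in HDE lungs (SD, n = 9), a 2.08-fold rise (95% confidence interval 1.49 to 2.89). The log2 fold change was 1.05 (SE 0.23, edgeR adjusted p = 0.000552), 0.96 without NNK (SE 0.34, adjusted p = 0.0293) and 1.15 with NNK (SE 0.31, adjusted p = 0.00589). Within run 1 alone it was 1.43 (edgeR adjusted p = 0.00301) and within run 2 alone 0.64 (adjusted p = 0.0925). The call without NNK was lost under TMM scaling (0.74, edgeR adjusted p = 0.109). It was also lost without any 1 of HDE only run 1 lane 10, HDE only run 2 lane 11, saline only run 1 lane 6, saline only run 2 lane 5 or saline only run 2 lane 6, with log2 fold changes of 0.75 to 0.94 and edgeR adjusted p of 0.0596 to 0.140.

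Tlr7, the other receptor of single-stranded RNA, had raw counts of 19 to 165 and exceeded the negative control limit in 20 of 21 libraries. It had 57.4 ± 21.5 normalized counts in saline lungs (SD, n = 12) and 113 ± 46.1 in HDE lungs (SD, n = 9), and 5 of 9 HDE libraries lay above all saline libraries. The lowest HDE library, HDE only run 2 lane 12, had 31.8 normalized counts of Tlr7, near the saline minimum of 31.0. In the fit without a minimum its log2 fold change was 0.97 (SE 0.24, edgeR adjusted p = 0.00233), and after TMM scaling 0.57 (adjusted p = 0.0153). The runs differed for Tlr7, with 105 ± 40.6 normalized counts in run 1 (SD, n = 12) and 48.7 ± 20.1 in run 2 (SD, n = 9). With run as a term it was 0.81 (edgeR adjusted p = 0.000335), and within run 2 alone 0.65 (adjusted p = 0.121).

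Tlr3, the receptor of double-stranded RNA, had raw counts of 28 to 140 and exceeded the limit in 19 of 21 libraries. It was at 68.8 ± 8.3 normalized counts in saline lungs (SD, n = 12) and at 57.4 ± 8.4 in HDE lungs (SD, n = 9). Of the 9 HDE libraries 5 lay below all saline libraries and none above. The log2 fold change was -0.26 (SE 0.12, 95% confidence interval -0.50 to -0.01) and did not pass after adjustment (edgeR adjusted p = 0.0868). It passed after TMM scaling (-0.61, adjusted p = 0.00255), after background subtraction (-0.66, adjusted p = 0.0231) and without HDE only run 2 lane 12 (-0.30, adjusted p = 0.0480).

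Tlr5 and Tlr9 were near background. Tlr5 exceeded the negative control limit in 9 of 12 saline libraries and in 1 of 9 HDE libraries, at raw counts of 11 to 62. Raw counts follow depth, and the limit was higher in run 1. After scaling, Tlr5 had 32.8 ± 4.5 normalized counts in saline lungs (SD, n = 12) and 27.0 ± 9.6 in HDE lungs (SD, n = 9). Its log2 fold change was -0.32 (SE 0.20, edgeR adjusted p = 0.202), with -0.40 when run was a term (adjusted p = 0.0439) and -0.72 after TMM scaling (adjusted p = 0.000536). It was -0.08 in run 1 alone and -0.93 in run 2 alone. Tlr9, the receptor of unmethylated CpG DNA, exceeded the limit in 8 of 21 libraries and in 0 of the 5 HDE + NNK libraries, at raw counts of 10 to 44. Its log2 fold change of 0.43 (SE 0.29, edgeR adjusted p = 0.223) was 0.54 within run 1 alone (adjusted p = 0.0377), -0.15 within run 2 alone (adjusted p = 0.840) and -0.011 after background subtraction. Its direction with HDE was not settled at these counts.

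**Figure D2:**
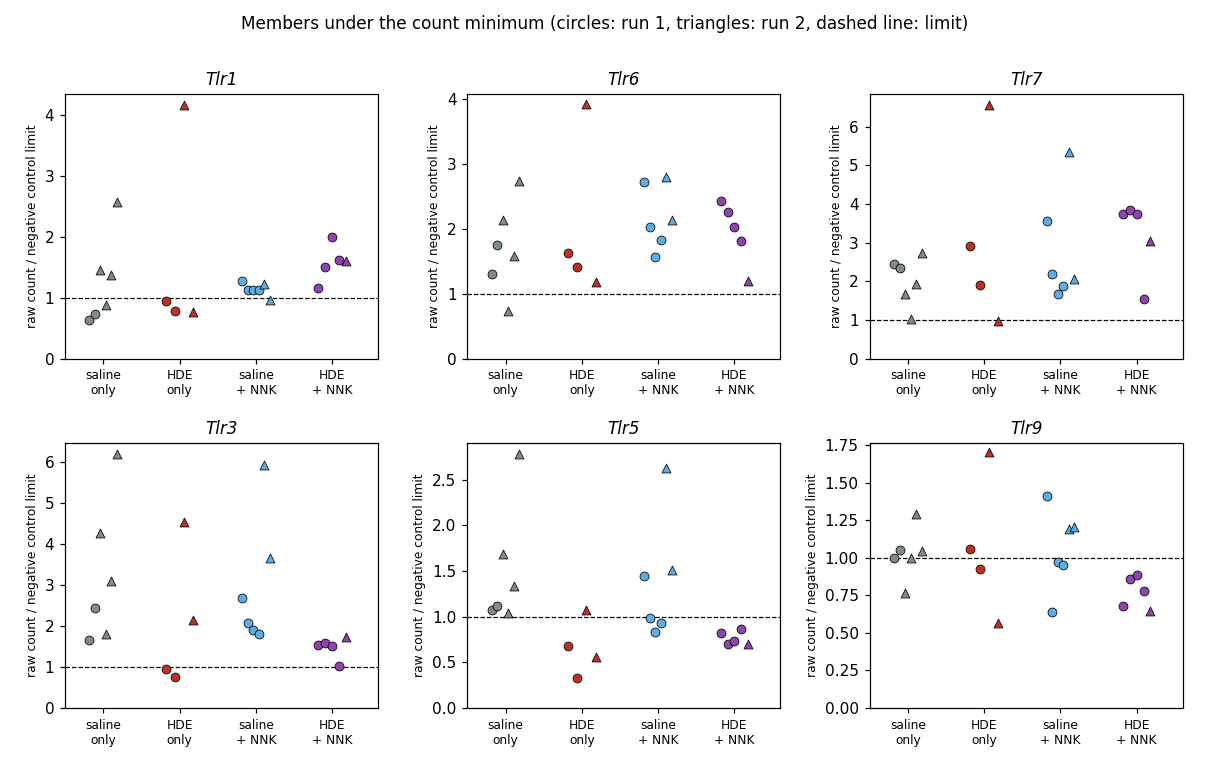
Raw count divided by the negative control limit of the same library (y axis, linear, from 0) for the 6 members under the count minimum, by group, with circles for run 1 and triangles for run 2. The dashed line marks a raw count equal to the limit, which Tlr5 exceeds in 1 of 9 HDE libraries and Tlr9 in 0 of 5 HDE + NNK libraries.

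Myd88, the adaptor shared by most of the receptors, was at 106 ± 14.8 normalized counts in saline lungs (SD, n = 12) and 124 ± 16.1 in HDE lungs (SD, n = 9). It ran from 92.0 (median 103) to 121 normalized counts with saline only, and the 4 HDE only libraries had 154, 116, 139 and 106. With saline + NNK it ran from 71.2 (median 114) to 119 normalized counts, and the 5 HDE + NNK libraries had 135, 113, 107, 127 and 123. Of the 9 HDE libraries 5 lay above all saline libraries. The log2 fold change was 0.24 (SE 0.10, 95% confidence interval 0.03 to 0.46) and missed the threshold (edgeR adjusted p = 0.0573). It passed without HDE only run 2 lane 12 (0.29, adjusted p = 0.0280) and without saline only run 1 lane 6 (0.26, adjusted p = 0.0469). After TMM scaling it was 0.07 (adjusted p = 0.545). In the deposited counts with a floor of 87 it also passed (0.34, edgeR adjusted p = 0.0156, or 0.32 and 0.0317 with sex as a term). There 2 HDE only counts stood at the floor and read 206.5 and 145.7 after scaling, against at most 154 from the raw counts. Of saline only, 2 counts at the floor read 143 and 117. Whether that pass rests on the counts at the floor was not tested.

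Irak4, the kinase that Myd88 recruits, passed the test with HDE only, and did not with HDE + NNK. The 4 HDE only libraries had 142, 140, 148 and 132 normalized counts of Irak4, against 93.1 (median 111) to 138 with saline only. Of the 4, 3 lay above all 6 saline only libraries. The 5 HDE + NNK libraries had 95.5, 118, 119, 114 and 117 normalized counts, against 97.7 (median 108) to 128 with saline + NNK. The log2 fold change was 0.33 without NNK (SE 0.13, edgeR adjusted p = 0.0475) and 0.012 with NNK (SE 0.12, adjusted p = 0.955). The call without NNK stood just inside the threshold and was lost in 14 of 21 fits that left out 1 library, such as without saline only run 2 lane 6 (0.28, adjusted p = 0.113). It was also lost under TMM scaling (0.14, adjusted p = 0.441).

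In all, 3 of the 4 members tested were called higher without NNK, where 30.2% of the 388 genes were, and 2 of 4 with NNK, where 29.9% were. Saline libraries of the comparisons without and with NNK are separate. Of the NNK contrasts (average, within saline, within HDE and the HDE by NNK interaction), none called any of the 4 members, and 0% of the 388 genes were called in each. At an unadjusted p under 0.05, edgeR had 9, 4, 8 and 4 genes in these contrasts. Irak4 was the member with the smallest p there. In HDE-exposed mice its log2 fold change with NNK was -0.32 (SE 0.13, 95% confidence interval -0.59 to -0.05, edgeR adjusted p = 0.996). The interaction for Irak4 was -0.32 (SE 0.17, edgeR adjusted p over 388 genes = 1.00), so the difference between its HDE effects did not pass a test. For Tlr2, the NNK effect was 0.013 (95% confidence interval -0.22 to 0.25) and for Tlr8 -0.038 (-0.52 to 0.44) on the log2 scale.

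**Figure D3:**
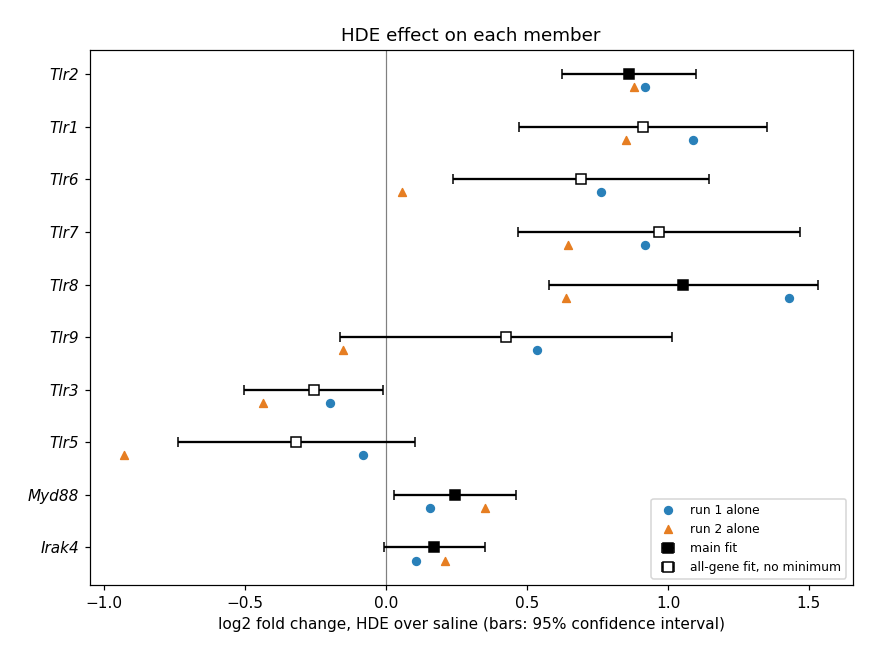
Log2 fold change of HDE over saline (x axis) for the 10 members, with bars for the 95% confidence interval, filled squares for the main fit of 388 genes, open squares for the fit of 766 genes without a minimum, and blue circles and orange triangles for run 1 and run 2 alone. Tlr2 is at 0.92 and 0.88 in the runs, Tlr8 moves from 1.43 to 0.64 and Tlr6 from 0.76 to 0.06.

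Tlr8 was lower in males. Sex is given only with the deposited table in which counts under 87 were raised to 87, and the values that follow come from that table after the same scaling. In each of the 4 groups every female had more Tlr8 than every male. The 5 saline only females had 99.3 to 242 and the male 87.6. With saline + NNK the 3 females had 180 to 201 and the 3 males 80.5 to 84.3, where 2 of the male counts stood at the floor. The HDE only female had 403 and the 3 males 198 to 297, and the 3 HDE + NNK females had 351 to 358 and the 2 males 142 and 300.1. Of 388 genes tested, Tlr8 was the only one with such an order in all 4 groups in this direction (0.258%), and 0 genes had the opposite one.

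Fitted with the 4 groups, Tlr8 had a log2 fold change of -0.90 for males over females (SE 0.16, 95% confidence interval -1.24 to -0.57, edgeR adjusted p = 0.00538). That is a level of 0.534 times that of females. It was the only gene called of 388, so that 0.258% were called lower in males and 0% higher, and 13 genes had an unadjusted p under 0.05. The next genes were C7, a complement component, at 0.45 (edgeR adjusted p = 0.124) and Cybb, the catalytic subunit of the phagocyte NADPH oxidase, at -0.65 (adjusted p = 0.325). The sex difference of Tlr8 stayed called when each sample was left out in turn, between -1.06 and -0.83, and after TMM scaling (-0.91, adjusted p = 0.0191). The labels that give sex do not give the run, so that both could not be placed in 1 fit, and whether run moved with sex was not tested. With the replicate number of the labels as a block it was -0.84 (edgeR adjusted p = 0.236) and no longer passed.

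**Figure D4:**
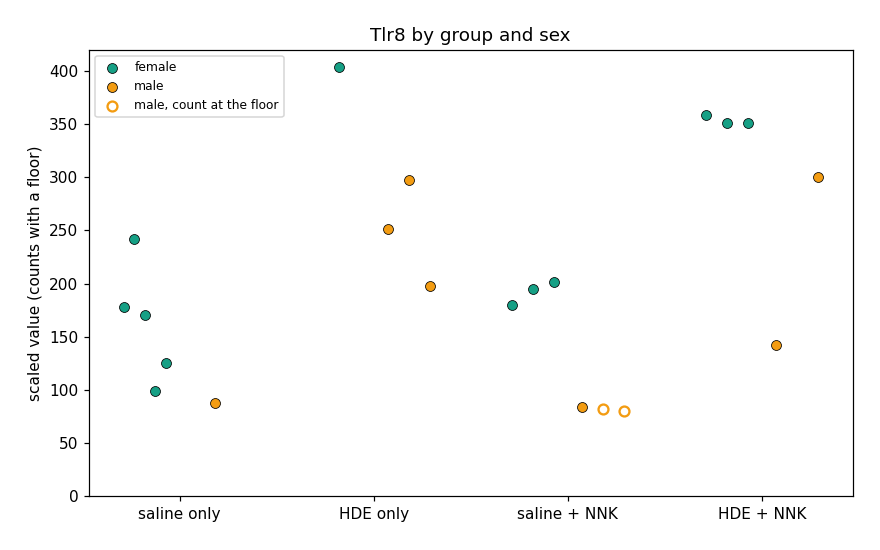
Tlr8 in each of the 21 mice (y axis, linear, from 0: deposited counts with a floor, scaled by the 4 housekeeping genes), by group, with females in green, males in orange and open circles for counts at the floor. In each group all females lie above all males, as in saline + NNK, where females had 180 to 201 and males 80.5 to 84.3.

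Of the saline mice 8 were female and 4 male, against 4 and 5 of the HDE mice, so the group with the higher Tlr8 held more of the sex with the lower Tlr8. With sex as a term the HDE effect on Tlr8 was 1.30 (edgeR adjusted p = 2.66e-07), against 1.04 in the same table without it. A difference of the HDE effect between the sexes did not pass (edgeR, male minus female 0.41, 95% confidence interval -0.24 to 1.07, adjusted p = 0.622). Tlr2, Myd88 and Irak4 had differences of 0.07, 0.09 and 0.08 between males and females, each with an edgeR adjusted p of 0.984, though 10 of the 21 Tlr2 counts stood at the floor. Tlr8 and Tlr7 are neighbours on the X chromosome, with no other gene of the RefSeq table between them. Tlr7 stood at the floor in 7 of 9 males and 5 of 12 females and could not be fitted. Its deposited counts were 133 to 165 in the 3 HDE + NNK females and at the floor in both males. In the other groups the sexes lay closer or could not be told apart. The HDE only female had 107 and the highest of the males 104, saline + NNK had 87 to 126 in females and 87 to 89 in males, and with saline only 4 of 5 females stood at the floor like the male. Of the 11 tested genes on X, 6 were lower in males on average, with a median log2 fold change of -0.04 against 0.03 over all 388, and Tlr8 was the only one called. Cybb, the next of the 11, is also X-linked.

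The bases before the start of Tlr8 are printed because this gene carried both the HDE and the sex difference. They hold 1 match, on the opposite strand, to GAGGAA, the core of the site of PU.1, a factor of myeloid cells, shown in capitals. The window is chrX:167264330-167264579 on the minus strand of GRCm38.p6 (RefSeq).
Tlr8: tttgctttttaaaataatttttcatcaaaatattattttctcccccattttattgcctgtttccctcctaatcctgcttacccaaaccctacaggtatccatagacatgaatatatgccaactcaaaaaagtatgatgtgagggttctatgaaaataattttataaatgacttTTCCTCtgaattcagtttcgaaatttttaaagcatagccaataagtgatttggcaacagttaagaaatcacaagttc
The match lies 77 to 72 bases before the start. GAGGAA occurs in 23.3% of 32851 such windows and in 3 of the 9 members with an entry (Tlr1, Tlr8 and Tlr9), and neither motif overlapped the other in these windows.

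The genes whose log2 normalized counts ran most closely with each member across the 21 libraries, once group means were removed, were found for description. All values of a library share its scaling, and differences between the sexes were not removed. For Tlr8 they were Cybb (Pearson r = 0.82, Spearman rho = 0.77) and Clu, which encodes the chaperone clusterin (r = 0.74, rho = 0.70), and with HDE Cybb rose by 1.66 and Clu by 0.72 on the log2 scale (edgeR adjusted p = 9.64e-07 and 1.18e-05). Like Tlr8, Cybb and Clu were lower in males on average in the counts with a floor (-0.65 and -0.29 on the log2 scale), and neither was called. For Tlr2 the closest genes were the macrophage scavenger receptor Marco (r = 0.75, rho = 0.70) and the sterol transporter Abcg1 (r = 0.74, rho = 0.61). Marco fell with HDE, by 1.16 on the log2 scale (edgeR adjusted p = 0.000153), while Tlr2 rose. For Myd88 they were Hprt and Pvrl2, both at r = 0.71, and for Irak4 Chil3 (r = 0.50) and Lamp1 (r = 0.42), the latter pair being weak.

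Of 67 other genes of Toll-like receptor signaling, 64 were on the panel and 41 in the main fit. With HDE 11 of the 41 (26.8%) were called higher and 4 (9.8%) lower, against 39.4% and 10.1% of all 388 genes, and their median log2 fold change was 0.04, against 0.15. Among receptors and co-receptors, 4 of 5 rose. These were Cd14, which hands endotoxin and lipopeptides to the receptors (1.51), Ly96, the co-receptor of Tlr4 (0.88), Lbp, the plasma carrier of endotoxin (0.50), and Tlr4 itself (0.44, edgeR adjusted p = 0.00303). Cd36, a scavenger receptor that serves Tlr2 as a co-receptor, fell by 0.35 on the log2 scale. Among adaptors and kinases 3 of 20 rose (Irak2, Traf3 and Map3k1) and 17 did not pass. Of the 6 others on the panel, under the minimum, 3 rose in the fit without one, where 34.3% of all genes were called higher. These were Ticam2, an adaptor of Tlr4 (1.17, edgeR adjusted p = 2.61e-05), the kinase Ikbke (0.98, adjusted p = 0.00147) and Irak3, an inhibitory member of the Irak family (0.63, adjusted p = 0.00248). The kinase Irak1, downstream of Irak4, was at 0.16 (edgeR adjusted p = 0.256) and Traf6 at -0.18 (adjusted p = 0.0851).

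Of the 15 transcription factors and inhibitors tested, 4 rose and 2 fell. Irf5, a factor downstream of Myd88, was at 0.80 (edgeR adjusted p = 0.00206) and Tnfaip3, which restrains NF-kB, at 0.57 (adjusted p = 0.000601), while Irf1 and Jun fell. Of 16 targets on the panel only Ccl5, a chemokine, reached the minimum, and it fell by 0.62 on the log2 scale (edgeR adjusted p = 0.0456). In the fit without a minimum 5 of the 15 other targets rose, a share close to the 34.3% of all genes called higher there. They were the chemokines Ccl3 (0.90, edgeR adjusted p = 0.000382), Cxcl1 (0.96, adjusted p = 0.00663) and Cxcl2 (0.82, adjusted p = 0.0291) and the costimulatory molecules Cd80 (0.98, adjusted p = 5.71e-05) and Cd86 (0.51, adjusted p = 0.0175). Cxcl2 was above the negative control limit in 9 of 21 libraries. The raw counts of Tnf, Il6, Il12b, Ifnb1 and Ifna1 did not exceed the negative control limit in any of the 21 libraries. After TMM scaling, which moved the median of all 388 genes from 0.15 to -0.04, 52.0% of the genes called were higher with HDE, against 79.7% before. That share was 66.2% with all housekeeping genes, 64.0% with positive control scaling, 51.5% with DESeq2 and 27.7% with the unscaled counts.

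Markers of several immune cell types rose with HDE in the main fit, where 39.4% of all 388 genes were called higher. Of 7 macrophage and monocyte markers tested, 6 rose with HDE (among them Cd68 and Csf1r) and Marco fell, and their summed level was 1785 to 2503 normalized counts in saline libraries and 2291 to 4342 in HDE libraries. All 9 macrophage markers on the panel exceeded the negative control limit in some library. All 3 B cell markers and both conventional dendritic cell markers tested rose, as did S100a8, the 1 neutrophil marker tested. Cd3g, the 1 T cell marker tested, also rose (0.67, edgeR adjusted p = 0.000312). Of 3 epithelial markers tested, Muc1 rose (0.49, edgeR adjusted p = 1.3e-05), while Cdh1 and Epcam did not pass. The B cell markers summed to 178 to 446 normalized counts in saline and 392 to 1176 in HDE libraries. All 6 endothelial markers fell, from a sum of 8305 to 11246 in saline to 4966 to 9961 normalized counts in HDE libraries. The 2 plasmacytoid dendritic cell markers tested did not pass. In the fit without a minimum, where 34.3% of all genes were called higher, markers under the minimum were mixed. No further neutrophil or conventional dendritic cell marker passed. Of the NK cell list Gzma fell (-0.71, edgeR adjusted p = 0.0428) and none rose. Cx3cr1 and Cd163 of the macrophage list and Ccr9 of the plasmacytoid list rose. So did all further B cell markers except Cd79a, and of the further T cell markers only Cd3d and Cd4. Camp and Elane of the neutrophil list and Klrb1c and Eomes of the NK cell list were never above the limit. In whole lung a change in cell numbers and a change in RNA per cell cannot be told apart, and the part of these cells in the values of the members was not tested.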

How the data were processed

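RNA (50 ng) from 21 left lungs was hybridized by the authors for 16 h to the NanoString mouse PanCancer Immune panel and read on an nCounter Sprint with nSolver. They deposited raw counts of 784 probes (750 endogenous genes, 20 housekeeping genes, 8 negative and 6 positive controls), unscaled, with group, run and lane, and a second table of the same counts with values under 87 raised to 87, which carries sex and replicate number. Columns of these tables were not matched to each other, and both were used separately. No genome build is given for the panel in the sources used here.

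Following the study's methods, each library was divided by its geometric mean over Eef1g, Oaz1, Rpl19 and Sdha, which leaves values open to a shift of these genes. All 388 other genes averaging 87 or more raw counts entered a robust quasi-likelihood fit on the 21 libraries with 1 mean per group (R 4.3.3, edgeR 4.0.16). P-values were adjusted by Benjamini-Hochberg over all genes, called under 0.05. The HDE effect averages the effect in mice given NNK and in mice not given it. Standard errors are the log2 fold change over the square root of its F statistic. The sex test added sex to the group means on the counts with the floor. Values at the floor can understate differences. Since scaling follows the floor, they are raised in libraries of low depth and can also overstate differences. The test was tried on simulated counts first. Alternatives used limma 3.58.1, DESeq2 1.42.0, TMM, other scalings and minimums, run, sex, replicate number, and fits without each library or without 2 doubted ones (HDE only run 2 lane 12 and saline only run 2 lane 3, both of low depth, the latter with the quality mark). HDE only run 1 lane 12, with 184875 counts and the lowest housekeeping level of all libraries, was kept in the fit without these 2. The number of mice limits the precision. Replicate numbers were not taken as a pairing of samples across groups, and whether they share a factor was not settled.

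The members and lists were chosen with earlier results of these data known. Named were all members, for each tested member the 2 genes with the highest Pearson r, of the signaling list the 5 smallest adjusted p and Tlr4, and markers needed to describe detection; other genes were named after their values were seen. Members matched RefSeq symbols in 10 of 10 cases and promoter entries in 9 of 10.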

Additional observations from a re-analysis of the deposited data

Results flagged for a closer look

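Of 40 combinations of member and group, 3 held a library far from the others of its group by Dixon's criterion, which chance meets in about 1 of 20 groups. Tlr8 was at 142 normalized counts in HDE + NNK run 1 lane 11, against 300.1 to 358 in the 4 others. Irak4 was at 95.5 normalized counts in HDE + NNK run 1 lane 7, against 114 to 119. Tlr3 was at 92.1 normalized counts in saline only run 2 lane 3, the library with the quality mark, against 61.2 to 70.5 in the 5 others.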

How the results depend on the processing

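The main count of members called with HDE (2 of 4) was 1 under positive control scaling, 1 with the unscaled counts with a floor (limma), 1 in run 2 alone, and 5 of 10 with no minimum or a minimum mean of 20. Leaving out 1 library gave 2 to 4, the 4 without saline only run 1 lane 6. Without NNK the count of 3 was 1 under TMM, all housekeeping genes, background subtraction, DESeq2 and run 1 alone, and 0 under positive control scaling, the unscaled floor and run 2 alone. Leaving out 1 library gave 1 to 3, the 1 without HDE only run 1 lane 10, HDE only run 2 lane 11, saline only run 2 lane 5 or saline only run 2 lane 6. With NNK the count of 2 was 0 under positive control scaling, the unscaled floor and run 2 alone, and 4 with a minimum mean of 20, and 2 to 2 without 1 library. In run 2 HDE + NNK had 1 library and the other groups 2 to 4, so that the fit took the spread from those groups. A call kept or lost there is therefore no measure of stability. The log2 fold changes themselves differed between the runs for Tlr5, Tlr6, Tlr8 and Tlr9, and hardly for Tlr2. No member was tested when 87 counts were required in every library. The sex count of 1 was 0 with the replicate block, and 1 to 1 without 1 sample. The cause was not tested.

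Some small effects reversed. Myd88 was at -0.030 under positive control scaling and -0.17 with the unscaled floor, at -0.079 without NNK in the latter, and with NNK at -0.16 and -0.27 in these 2. Irak4 was at -0.11 and -0.29 in the same 2, and without NNK at -0.12 with the unscaled floor. Its effect with NNK (0.012) was -0.13 under TMM, -0.079 with all housekeeping genes, -0.35 under positive control scaling, -0.086 after background subtraction, -0.15 with DESeq2, -0.46 with the unscaled floor and -0.00020 with the replicate block, and -0.024 to 0.065 without 1 library. Tlr9 was at -0.15 in run 2 alone and -0.011 after background subtraction, both without a minimum and both added after seeing the data. In the 28 pairs of samples with the same number in different groups, deviations from group means correlated between -0.23 and 0.51, with 15 over 0.1, so the number was not taken as a pairing; the replicate block left Tlr2 at 0.67 (edgeR adjusted p = 0.000878) and Tlr8 at 1.09 (adjusted p = 0.000375) for HDE. All fits without a minimum under other settings, and the sex test with TMM or the block, were chosen after seeing the data.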
